A study of Mus musculus with 17 samples.

Results

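Nucleic acid sensors are proteins that detect RNA or DNA in the cytosol or in endosomes, and 10 mouse genes that encode them were followed across the kidneys of this study. The genes were taken by name: Ddx58, Ifih1, Dhx58, Tlr3, Tmem173, Zbp1, Aim2, Ifi203, Ifi204 and Ifi207. Of these, 9 were found by symbol among the 22558 genes used. The symbol Ifi207 was absent from the gene table, and its gene, ENSMUSG00000073490, stood there under the older name AI607873, so all 10 could be measured.

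The 17 samples were whole kidneys of male mice that entered the experiment at 8 weeks of age and were treated for 6 weeks, with 1 RNA-seq library per mouse. The 5 Ctrl mice were C57BL/6 mice of wild-type genotype given saline. The 6 Case mice were untreated diabetic db/db mice (BKS.Cg-Dock7m +/+ Leprdb/J), which carry a leptin receptor mutation that makes them obese and diabetic, and they also received saline. The 6 Dapa mice were db/db mice given 1 mg/kg/day of dapagliflozin, which blocks glucose uptake by SGLT2 in the proximal tubule. Ctrl mice were of another strain than db/db mice, so the effects of strain and of the diabetic genotype cannot be told apart in either comparison with Ctrl. The comparison of Dapa with Case lies within db/db mice and asks what the drug changed.

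As background, RIG-I (Ddx58), MDA5 (Ifih1) and LGP2 (Dhx58) are cytosolic RNA helicases, and the first 2 signal through the mitochondrial adaptor Mavs to interferon genes. Tlr3 detects double-stranded RNA in endosomes, STING (Tmem173) relays the DNA signal of the enzyme cGAS, and Zbp1 binds Z-form nucleic acid and can start necroptosis. Aim2, Ifi203, Ifi204 and Ifi207 belong to the p200 family, a row of neighbouring genes on mouse chromosome 1, in which Aim2 forms an inflammasome on DNA and Ifi204 is the gene most often likened to the human sensor IFI16. Most of these genes are themselves induced by interferon, in immune cells and in tubular epithelium.

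Interferon induction acts through short promoter elements, so the members' promoters were searched for the core of the interferon-stimulated response element, which is GAAA, any 2 bases and GAAA, on both strands. RefSeq promoter entries, from 250 bases before to 50 bases after a transcription start in build GRCm38.p6, existed for 6 of the 10 members. There was none for Dhx58, Tmem173, Zbp1 and Ifi204. The core stood in an entry of 4 of those 6, Ddx58, Ifih1, Ifi203 and Ifi207, and in neither Tlr3 nor Aim2. Counted by entry it stood in 4 of 7, against 3.44% of 32851 mouse promoter entries. The GAS element, TTCNNNGAA, stood in none of the 6, against 8.3% of all entries. The stretches that hold the core are shown 5′ to 3′ along the gene, with the core in capitals. They are the minus strand of chr4:40239796-40239925 for Ddx58, chr2:62646206-62646235 for Ifih1, chr1:173942463-173942592 for Ifi203 and chr1:173741780-173741909 for Ifi207.
Ddx58: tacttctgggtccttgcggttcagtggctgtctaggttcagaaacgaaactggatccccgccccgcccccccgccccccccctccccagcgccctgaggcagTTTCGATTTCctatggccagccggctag
Ifih1: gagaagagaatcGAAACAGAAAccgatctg
Ifi203: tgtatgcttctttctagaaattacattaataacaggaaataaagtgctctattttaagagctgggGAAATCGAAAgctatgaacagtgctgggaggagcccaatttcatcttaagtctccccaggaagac
Ifi207: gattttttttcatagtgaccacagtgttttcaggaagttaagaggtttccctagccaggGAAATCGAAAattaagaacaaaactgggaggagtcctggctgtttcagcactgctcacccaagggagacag

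The cores of Ifi203 and Ifi207 had the same letters and began 35 and 41 bases before the first transcribed base. In Ddx58 the core lay on the opposite strand and began 2 bases after the first transcribed base, and in Ifih1 it began 32 bases after it. Ifi203 had a further entry, at the annotated start of the gene, without the core. The start shown here lies inside the gene and adjoins the annotated start of its neighbour Mndal. A match of letters is a description of the sequence and not a measured binding site.

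Library totals ran from 13039535 to 17779635 counts, of which mitochondrial genes took 17.9% to 20.4% in Ctrl, 19.8% to 27.3% in Case and 19.7% to 27.6% in Dapa. In 5 of 6 Case mice and 4 of 6 Dapa mice this share lay above that of every Ctrl mouse, with Case 6 the highest in Case, and its part in the differences of the sensors was not tested. The proximal tubule was well represented in every library, with a summed level of 8 markers of 1539 to 2741 FPKM (fragments scaled by gene length and library total). One mouse stood apart: in Case 3 the summed level of 10 macrophage markers was 204.0 FPKM, against 28.81 to 58.02 in the other Case mice, 27.26 to 46.84 in Ctrl and 25.52 to 62.06 in Dapa. Neutrophil markers summed to 17.8 FPKM in Case 3 and 14.7 in Case 1, and T and NK cell markers to 5.13 in Case 3. In whole tissue, fewer cells of a type and less RNA per cell cannot be told apart. Gene-level Lepr, at 0.464 to 1.93 FPKM in Ctrl and 0.417 to 5.4 in db/db mice, gave no check of the genotype. A further 7 libraries (Ctrl 1, 3 and 4, Case 1 and Dapa 10, 11 and 12) held values of 3 genes outside the members whose FPKM and counts disagreed, and values within these 7 and within the other 10 are given where a call rests on them.

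All 10 sensors were lowly expressed. Averaged over the 17 mice, Ddx58 was highest at 4.27 FPKM, followed by Tlr3 at 3.05, Ifih1 at 1.92, Ifi203 at 1.73 and Tmem173 at 1.15. The remaining 5 lay below 1 FPKM: Ifi204 at 0.979, Ifi207 at 0.683, Dhx58 at 0.499, Zbp1 at 0.472 and Aim2 at 0.237. In the Ctrl kidneys the order was Ddx58, Tlr3, Ifi203, Ifih1, Ifi207, Ifi204, Tmem173, Dhx58, Zbp1 and Aim2, and each gene's range overlapped that of the next, except that Ifi203 (1.8 to 2.31 FPKM) lay above Ifih1 (1.23 to 1.71 FPKM). By the files' coordinates in build mm10, Ddx58 lies at chr4:40203773-40239828, Ifih1 at chr2:62595798-62646255, Dhx58 at chr11:100694884-100704271, Tlr3 at chr8:45395665-45410608, Tmem173 at chr18:35733678-35740554 and Zbp1 at chr2:173206612-173218923. The p200 sensors lie on chromosome 1, Aim2 at chr1:173350879-173466040, Ifi207 at chr1:173723430-173741809, Ifi204 at chr1:173747293-173766943 and Ifi203 at chr1:173920407-173942672. The counts behind the levels set their precision. Ddx58 had 470 to 1357 counts per mouse, whereas Zbp1 had 0 to 255, Aim2 10 to 53, Dhx58 7 to 87 and Ifi207 6 to 104.

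**Figure D1:**
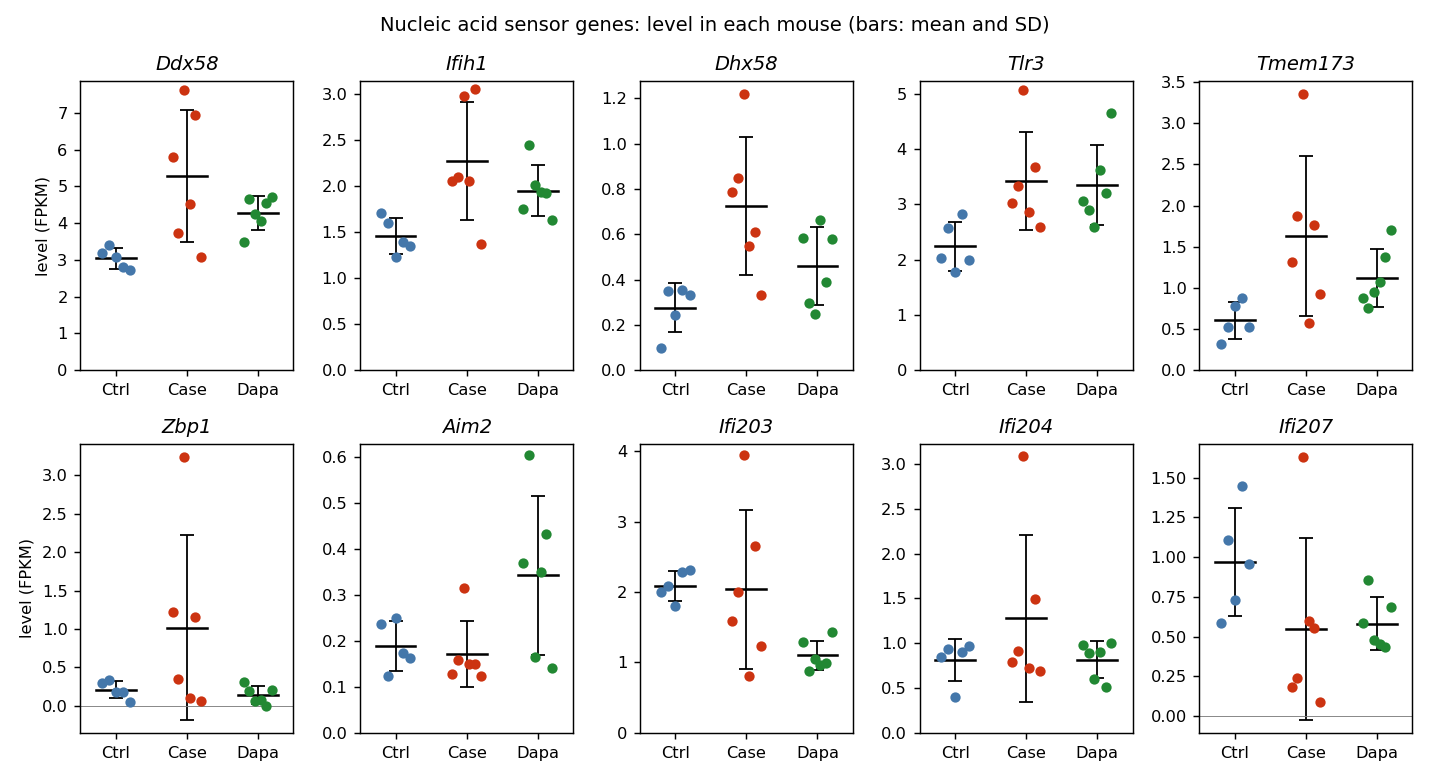
Level of each sensor gene in each mouse (y axis, FPKM) by group (x axis), with each panel on its own scale; points are mice, and black lines show the mean and SD of 5 Ctrl, 6 Case and 6 Dapa mice. Case has the largest SD for 9 of the 10 genes, all but Aim2, and the highest point in 8 panels is Case 3.

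Untreated db/db kidneys had more RNA for most of the RNA sensors and for STING than Ctrl kidneys. With edgeR's quasi-likelihood test and Benjamini-Hochberg adjustment over all genes (adjusted p given as q, called under 0.05), 4 of the 10 sensors differed between Case and Ctrl, and all 4 rose: Ddx58, Dhx58, Tlr3 and Tmem173. Over all 14582 genes tested, 13.0% were called, 6.09% higher and 6.91% lower. The median log2 fold change of the 10 was 0.55, against 0.03 over all genes tested, and 7 of the 10 were above 0, where 54.3% of all genes were. No sensor separated the groups completely, whereas 4.97% of all genes lay higher and 3.46% lower in Case without overlap.

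Ddx58, the sensor of short RNA with 5′ phosphates, stood at 3.19, 3.40, 3.09, 2.80 and 2.73 FPKM in Ctrl mice 1 to 5. In Case it ran from 3.09 over a median of 5.16 to 7.62 FPKM. The highest Case mice were numbers 3, 5 and 1, and only Case 6 overlapped Ctrl. The log2 fold change was 0.70 (SE 0.20, q = 0.0338).

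Ifih1, which detects long double-stranded RNA, was 1.71, 1.60, 1.23, 1.39 and 1.35 FPKM in Ctrl. Its Case levels ran from 1.37 over 2.08 to 3.05 FPKM. Here too 5 of the 6 Case mice lay above every Ctrl mouse and Case 6 did not, but the difference missed the threshold (log2 fold change 0.55, SE 0.18, q = 0.0559).

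Dhx58, the helicase that lacks the signalling domains of the other two, was 0.0985, 0.348, 0.245, 0.352 and 0.334 FPKM in Ctrl. Case levels ran from 0.334 over 0.698 to 1.22 FPKM, again with Case 6 alone inside the Ctrl range. Dhx58 rose by 1.3 on the log2 scale (SE 0.35, q = 0.0304), and the ratio of mean FPKM was 2.63.

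Tlr3, the endosomal receptor, was 2.03, 2.58, 1.77, 2.82 and 1.99 FPKM in Ctrl. In Case it ran from 2.60 over 3.18 to 5.07 FPKM, and Case 6 once more was the mouse that overlapped Ctrl. Its log2 fold change was 0.53 (SE 0.16, q = 0.0484), the smallest of the 4 that rose.

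Tmem173 was 0.321, 0.530, 0.776, 0.874 and 0.524 FPKM in Ctrl and ran from 0.574 over 1.54 to 3.36 FPKM in Case. Here it was Case 4, not Case 6, that fell inside the Ctrl range. The gene rose by 1.33 on the log2 scale (SE 0.40, q = 0.0449) with a ratio of mean FPKM of 2.70. By a rule that also asks for a ratio of mean FPKM over 2, Dhx58 and Tmem173 passed, where 3.79% of all genes did.

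Zbp1 differed widely between the Case mice. Ctrl levels were 0.293, 0.341, 0.185, 0.184 and 0.0525 FPKM. Case levels were 3.24 in Case 3, 1.22 in Case 1 and 1.16 in Case 5, and 0.344, 0.104 and 0.0698 in Case 2, 4 and 6. Thus Case 1, 3 and 5 lay well above every Ctrl mouse, Case 2 was level with the highest Ctrl mouse and Case 4 and 6 lay inside the Ctrl range, and the log2 fold change of 2.14 (SE 0.83, q = 0.108) did not pass and was 1.34 (q = 0.253) without Case 3. The same 3 mice, Case 1, 3 and 5, had the highest Ddx58 levels; their macrophage marker sums were 56.92, 204.0 and 31.42 FPKM, so that of Case 5 lay inside the Ctrl range.

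The 4 calls did not rest evenly on the mice. Without Case 3, the mouse with the high macrophage markers, the log2 fold changes were 0.58 for Ddx58 (q = 0.0612), 1.10 for Dhx58 (q = 0.0558), 0.40 for Tlr3 (q = 0.0801) and 1.01 for Tmem173 (q = 0.0837), and Ifi207 was the only member called. Without Case 6, 5 members were called, since Ifih1 then passed (log2 fold change 0.65, q = 0.0201). Leaving out Ctrl 1, 2, 3 or 5 left 0 members called, and leaving out Case 1, 2 or 5 left 1 each. Across all 11 such omissions the log2 fold changes ranged from 0.58 to 0.81 for Ddx58, 1.09 to 1.44 for Dhx58, 0.40 to 0.61 for Tlr3 and 1.01 to 1.51 for Tmem173, so the direction held each time. Within the 7 libraries named above (1 Case, 3 Ctrl) the log2 ratio of mean FPKM was 0.94 for Ddx58, 1.76 for Dhx58, 0.46 for Tlr3 and 1.00 for Tmem173, and within the other 10 (5 Case, 2 Ctrl) it was 0.76, 1.06, 0.62 and 1.69. With a term for these 7 libraries in the fit, 0 members were called, with log2 fold changes of 0.73 for Ddx58 (q = 0.0647), 1.22 for Dhx58 (q = 0.0755), 0.48 for Tlr3 (q = 0.135) and 1.35 for Tmem173 (q = 0.107). Over all alternatives Ddx58 was called in 12 of 22, Dhx58 in 13 of 21, Tlr3 in 10 of 22 and Tmem173 in 9 of 22. Of 10 macrophage markers tested, none of them at 0 throughout a group, 1 rose in Case (Cd14), 8 had log2 fold changes above 0 and the median was 0.59. In the same comparison 2 of 7 endothelial and 2 of 5 podocyte markers rose, where 6.09% of all genes rose and 6.91% fell. Of 8 markers each, 3 of the proximal tubule fell in Case and 6 in Dapa against Ctrl, and 4 and 5 of the distal nephron and collecting duct rose, where in Dapa against Ctrl 14.2% of all genes rose and 14.9% fell. The part of these cell types in the differences of the sensors was not tested.

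**Figure D2:**
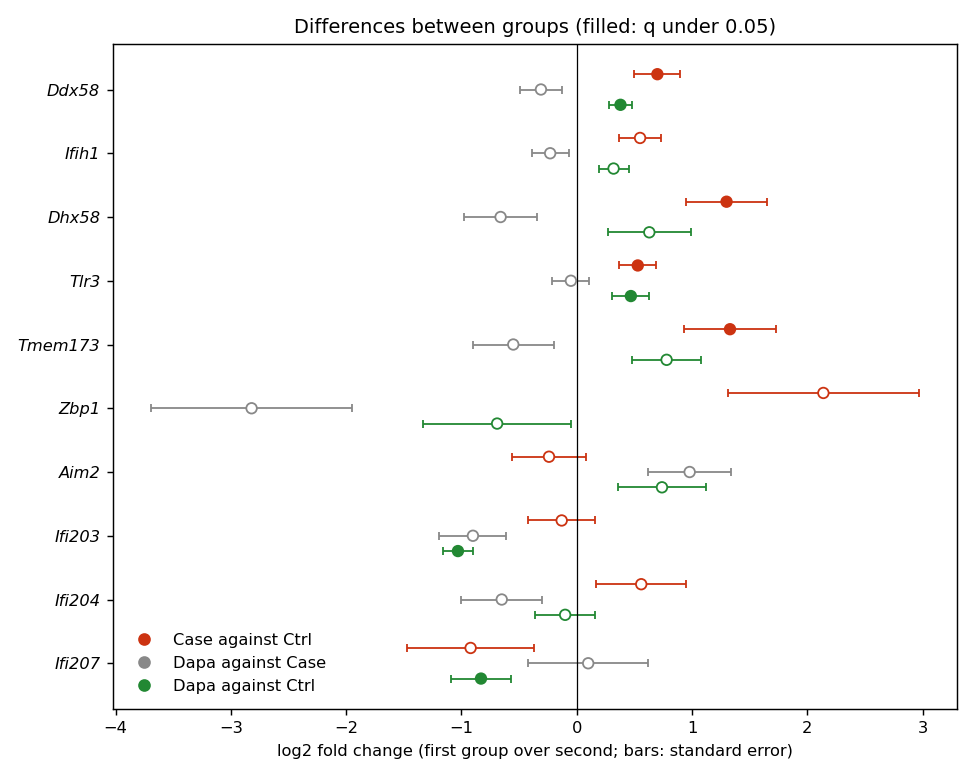
Log2 fold change of each sensor gene (x axis, first group over second, bars are standard errors) in the 3 comparisons (colours), with filled points at q under 0.05. In Case against Ctrl 4 genes are filled, all to the right of 0; in Dapa against Ctrl 2 lie to the right and 2, Ifi203 and Ifi207, to the left; in Dapa against Case none is filled.

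None of the p200 sensors Aim2, Ifi203, Ifi204 and Ifi207 was called between Case and Ctrl, where 13.0% of all genes were, and 3 of the 4 had a log2 fold change below 0. Ifi203 was 2.00, 2.08, 1.8, 2.28 and 2.31 FPKM in Ctrl and ran from 0.815 over 1.8 to 3.95 FPKM in Case. The Case mice thus lay on both sides of the narrow Ctrl range, 2 above it, 3 below it and 1 within it, and the log2 fold change was -0.13 (SE 0.29, q = 0.809). Without Case 3 it was -0.41 (q = 0.295).

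Ifi204 in Ctrl was 0.850, 0.935, 0.396, 0.907 and 0.973 FPKM. In Case it ran from 0.690 over 0.853 to 3.09 FPKM, with Case 3 and Case 5 above every Ctrl mouse (log2 fold change 0.56, SE 0.39, q = 0.369). Without Case 3 the value was 0.11 (q = 0.844). Ifi207 was 0.583, 1.11, 0.732, 1.45 and 0.958 FPKM in Ctrl and ran from 0.0863 over 0.395 to 1.63 FPKM in Case. Case 1, 2, 5 and 6 lay below all Ctrl mice and Case 3 above them all, and the log2 fold change was -0.92 (SE 0.55, q = 0.290). Without Case 3 it was -1.62 (q = 0.0352). Aim2 was 0.237, 0.123, 0.251, 0.173 and 0.163 FPKM in Ctrl and from 0.124 over 0.151 to 0.315 FPKM in Case, a log2 fold change of -0.24 (SE 0.32, q = 0.657) on 10 to 28 counts per Case mouse, and of -0.49 (q = 0.292) without Case 3.

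No sensor passed the threshold between treated and untreated db/db kidneys. None of the 10 was called in Dapa against Case, where 0% of the 14573 genes tested were called by edgeR's quasi-likelihood test. At an unadjusted p under 0.05, 3 of the 10 passed, Zbp1, Ifi203 and Aim2, against 12.9% of all genes. DESeq2 called 202 genes and edgeR's exact test 129, and neither called a sensor. The median log2 fold change of the 10 was -0.43, against -0.01 over all genes, and 2 of the 10 were above 0, where 48.8% of all genes were. No sensor separated the groups, as 0.316% of genes did upward and 0.165% downward.

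Zbp1 in Dapa ran from 0 over 0.133 to 0.306 FPKM, below Case 1, 2, 3 and 5 and overlapping Case 4 and 6. In Dapa 11 it had 0 counts, which allows up to 0.0458 FPKM at a floor of 3 counts. Its log2 fold change against Case was the farthest from 0 of the 10, -2.82 (SE 0.87, unadjusted p = 0.00573, q = 0.239), and was -2.04 (q = 0.275) without Case 3. Ifi203 in Dapa ran from 0.883 over 1.02 to 1.43 FPKM, inside the wide Case range, with a log2 fold change of -0.90 (SE 0.29, unadjusted p = 0.00827, q = 0.253) and of -0.62 (q = 0.283) without Case 3.

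Aim2 went the other way: in Dapa it ran from 0.141 over 0.36 to 0.604 FPKM, and 4 of the 6 Dapa mice lay above every Case mouse (log2 fold change 0.98, SE 0.36, unadjusted p = 0.0166, q = 0.287). The summed level of 7 B and plasma cell markers, none of them at 0 throughout a group, was 4.506 to 10.43 FPKM in Dapa and 3.755 to 5.536 in Case. The 6 Dapa mice stood in the same order for Aim2 and for this sum, from Dapa 8 at the top to Dapa 12. The orders differed within the other groups. Ctrl 3 had the highest Aim2 in Ctrl, 0.251 FPKM, and the lowest sum, 3.701. Case 3 was highest in Case for both, but Case 5, with the lowest sum, was not lowest for Aim2. Sdc1, at a mean of 3.13 FPKM in Dapa and 2.64 in Case, was a large share of this sum. The 10 T and NK cell markers, likewise none at 0 throughout a group, summed to 1.722 to 4.063 FPKM in Dapa, again with Dapa 8 the highest, and to 0.6453 to 5.13 in Case. Dapa 8 was also the highest Dapa mouse for macrophage markers, at 62.06 FPKM, and for neutrophil markers, at 8.013 FPKM, with Ly6g at 0 in every Dapa mouse. The part of these cells in the Aim2 levels was not tested. For the RNA sensors the difference was smaller or less certain. Log2 fold changes were -0.31 for Ddx58 (SE 0.18, q = 0.460), -0.23 for Ifih1 (SE 0.16, q = 0.559), -0.66 for Dhx58 (SE 0.32, q = 0.391) and -0.05 for Tlr3 (SE 0.16, q = 0.918). For Tmem173 it was -0.55 (SE 0.35, q = 0.509), for Ifi204 -0.65 (SE 0.35, q = 0.438; -0.21 and q = 0.730 without Case 3) and for Ifi207 0.10 (SE 0.52, q = 0.950). Single mice moved several of these values: without Case 3 it was -0.20 for Ddx58 (q = 0.606), -0.15 for Ifih1 (q = 0.691), -0.24 for Tmem173 (q = 0.753) and 0.79 for Ifi207 (q = 0.394). Without Case 5 the value of Ifih1 was -0.12 (q = 0.782). With 1 mouse left out, Ifi207 ranged from -0.12 to 0.79 and so took either sign. With these standard errors, missing the threshold does not show that the 2 groups were alike.

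The spread itself differed between the diabetic groups in the mice at hand: the SD of Ddx58 was 1.8 FPKM in Case and 0.461 in Dapa, and that of Ifi203 was 1.13 and 0.211. Case 3 was the highest of all 17 mice for 8 of the 10 sensors. The exceptions were Ifih1, highest in Case 5, and Aim2, highest in Dapa 8. No test of the spread was made.

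**Figure D3:**
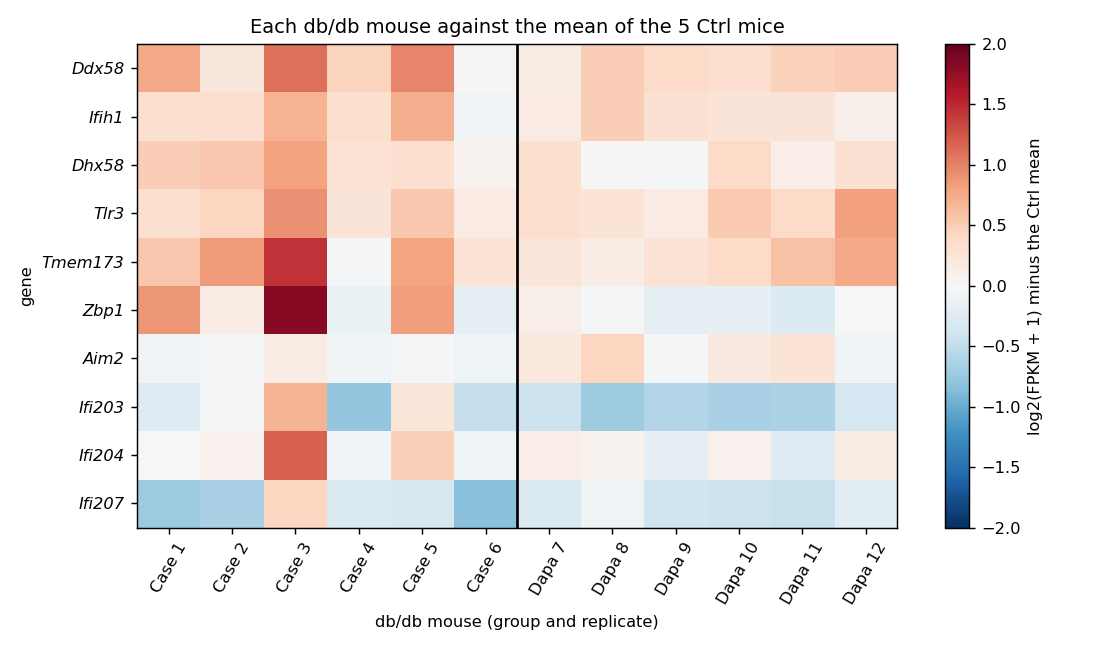
Difference of each db/db mouse (columns) from the mean of the 5 Ctrl mice for each sensor (rows), on the log2(FPKM + 1) scale, red above and blue below the Ctrl mean. Case 3 is red in every row, with 1.81 for Zbp1 and 1.45 for Tmem173, and Ifi203 is blue in all 6 Dapa mice, from -0.71 to -0.35.

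In treated db/db kidneys compared with Ctrl, Ddx58 and Tlr3 were higher and Ifi203 and Ifi207 lower, so 4 of the 10 sensors were called, 2 in each direction. Of all 14647 genes tested, 29.1% were called, 14.2% higher and 14.9% lower, and 6 of the 10 sensors had values above 0, where 51.4% of all genes did. None of the 10 also had a ratio of mean FPKM over 2 in either direction, where 7.18% of all genes passed both. This comparison shares the Ctrl mice with that of Case, so the values are set side by side and not counted as agreement.

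Ddx58 in Dapa ran from 3.48 over 4.39 to 4.70 FPKM, and all 6 mice lay above all 5 Ctrl mice, as 9.79% of all genes did. Its log2 fold change was 0.38 (SE 0.10, q = 0.0126), where that of Case was 0.70. It was called in 20 of 21 alternatives and missed with all 3 groups in one fit (q = 0.110). Tlr3 ran from 2.59 over 3.14 to 4.66 FPKM with a log2 fold change of 0.47 (SE 0.16, q = 0.0391), close in value to the 0.53 of Case. Leaving out Ctrl 1, 3 or 5 or Dapa 10, 11 or 12 ended the call of Tlr3 (q = 0.0534 to 0.0893, log2 fold change 0.37 to 0.50).

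Ifi203 fell most clearly of all the sensors. Every Dapa mouse, at 0.883 to 1.43 FPKM, lay below every Ctrl mouse, at 1.8 to 2.31, a separation downward that 4.74% of all genes showed. The log2 fold change was -1.03 (SE 0.13, q = 0.000371), and the ratio of mean FPKM was 0.525. Over the 21 alternative settings tried it was called each time, with log2 fold changes from -1.11 to -0.56 and q from 4.58e-11 to 0.00927. Within the 7 libraries the log2 ratio of means was -0.85 (3 Dapa, 3 Ctrl) and within the other 10 it was -1.03 (3 Dapa, 2 Ctrl).

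Ifi207 ran from 0.434 over 0.531 to 0.858 FPKM in Dapa, with 3 of the 6 mice below all Ctrl mice (log2 fold change -0.83, SE 0.26, q = 0.0310). The call was lost without Ctrl 2, 4 or 5 or without Dapa 9, 10 or 11 (q = 0.0551 to 0.0823, log2 fold change -0.84 to -0.65), and Ifi207 was called in 12 of 21 alternatives in all. Within the 7 libraries and the other 10 its log2 ratio of means was -0.82 and -0.69. For Ddx58 these were 0.55 and 0.43, and for Tlr3 0.80 and 0.32.

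The other 6 sensors did not pass in Dapa against Ctrl, although Tmem173 was called in 8 of 21 alternatives and Ifih1 in 5 of 21. Tmem173 ran from 0.756 over 1.01 to 1.70 FPKM, with 5 of 6 mice above all Ctrl mice (log2 fold change 0.78, SE 0.30, q = 0.0640). Ifih1 ran from 1.63 over 1.93 to 2.45 FPKM (0.32, SE 0.13, q = 0.0767) and Dhx58 from 0.249 over 0.483 to 0.662 FPKM (0.63, SE 0.36, q = 0.196). These 3 had positive values in both diabetic groups. The log2 fold change was 0.74 for Aim2 (SE 0.38, q = 0.157), -0.69 for Zbp1 (SE 0.64, q = 0.441; -1.06 without Dapa 7, -0.44 without Ctrl 2 and -0.43 without Dapa 11) and -0.10 for Ifi204 (SE 0.26, q = 0.804), whose Dapa levels ran from 0.509 over 0.896 to 1.00 FPKM.

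The balance between 2 p200 sensors, Ifi203 and Ifi204, which lie with Mndal and Mnda between them, differed from Ctrl in both diabetic groups. For Dapa this largely restates the fall of Ifi203, with log2 fold changes of -1.03 for Ifi203 and -0.10 for Ifi204. The log2 ratio of Ifi203 to Ifi204, taken per mouse on FPKM + 1, was 0.78 ± 0.13 in the 5 Ctrl mice (mean and SD), 0.42 ± 0.21 in the 6 Case mice and 0.21 ± 0.16 in the 6 Dapa mice. All 6 Case mice and all 6 Dapa mice lay below all 5 Ctrl mice, with a two-sided exact permutation p of 0.00433 for each, the smallest that 6 against 5 mice can give, and 0.0195 after adjustment over the 9 ratio tests made. The difference between Dapa and Case, -0.20, did not pass (exact permutation p = 0.0952), while without Case 4 it was -0.27 (unadjusted exact permutation p = 0.0216). With 0.1 in place of 1 added to the FPKM, the difference from Ctrl was larger, -0.64 against -0.37 in Case and -0.90 against -0.57 in Dapa, with the same p of 0.00433 in the exact permutation test. Without Case 3 the Case value remained lower than that of Ctrl by -0.34 (exact permutation p = 0.00794). The ratios of Ifih1 and of Dhx58 to Ddx58 passed in no comparison, with exact permutation p-values from 0.0952 to 0.885; with 1 mouse left out, that of Ifih1 to Ddx58 had an unadjusted exact permutation p of 0.0238 in Case against Ctrl (-0.25, without Case 2) and of 0.0476 in Dapa against Ctrl (-0.16, without Ctrl 3).

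The p200 genes share sequence, which bears on how reads are assigned to them. Of all 50-base stretches in their annotated transcripts, 20% of those of Ifi204, 12.2% of those of Ifi203 and 7.29% of those of Ifi207 occurred in another gene as well, most often Ifi211, Ifi203-ps and Ifi204. Ifi203 also shares exon bases with Mndal on the same strand. Levels of these 3 sensors are therefore uncertain to that extent, as the submitters' handling of reads that fit several genes is not given in the sources used here. Among the 7 other sensors the share was 0.628% for Aim2, 0.393% for Ddx58 and 0 for the remaining 5. Dhx58 and Tlr3 overlap an antisense gene each (Dhx58os and Gm45542), and whether counting used strand is not given.

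Of 9 further p200 genes listed, 8 were in the table and 5 were tested. None was called in Case against Ctrl. In Dapa against Ctrl 4 of the 5 fell, where 14.9% of all genes did, named here after their values were seen: Ifi209 by 1.49 on the log2 scale (q = 0.00306), Mnda by 1.42 (q = 0.0114), Ifi213 by 1.58 (q = 0.0371) and Mndal by 0.46 (q = 0.0302). Counts per Dapa mouse were low for Ifi209 (6 to 13), Mnda (5 to 23) and Ifi213 (1 to 29), and higher for Mndal (119 to 172). The median of the 5 was -1.42, against 0.02 over all genes. Along the chromosome the called genes thus ran from Ifi213 to Ifi203, with Ifi208 (-0.81, q = 0.131) and Ifi204 (-0.10) between them not called and Aim2 (0.74), at the end of the row, not called either. Dendritic cell markers, of which Clec9a was the 1 of 4 tested that fell in Dapa against Ctrl, summed to 1.556 to 3.565 FPKM in Ctrl and 1.493 to 2.206 in Dapa, with none at 0 throughout a group, and their part in the p200 levels was not tested.

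**Figure D4:**
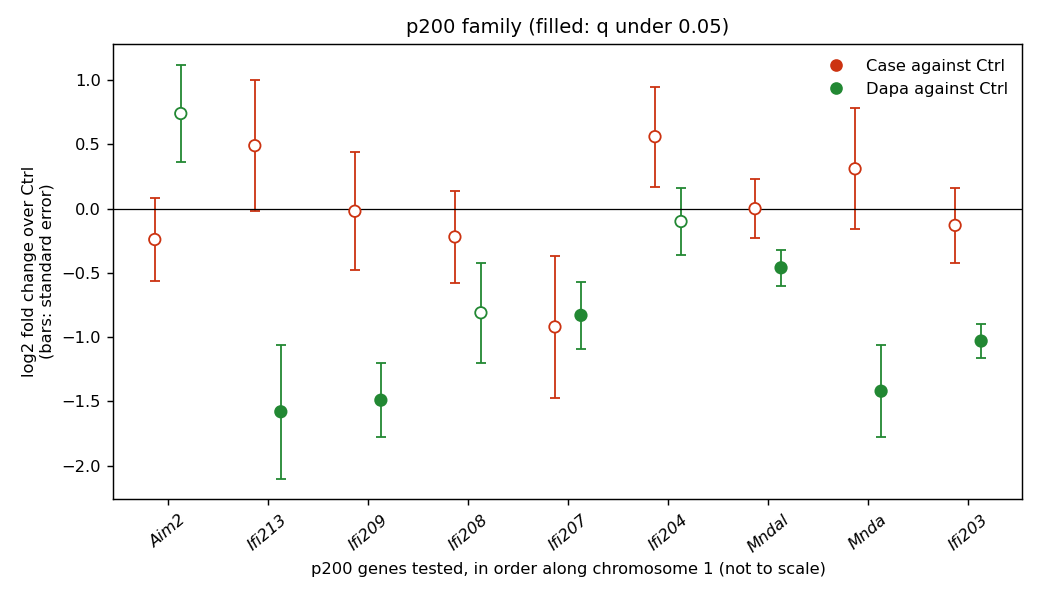
Log2 fold change over Ctrl (y axis, bars are standard errors) of the 9 p200 genes tested, in their order along chromosome 1 (x axis, spacing not to scale), with filled points at q under 0.05. Green points (Dapa) are filled and below 0 for 6 genes, including the sensors Ifi203 at -1.03 and Ifi207 at -0.83; red points (Case) are filled for none.

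Of 13 genes of the signalling chain downstream of the RNA sensors, 0 rose and 1 fell in Case against Ctrl, where 6.09% of all genes rose and 6.91% fell: Trim25, a ubiquitin ligase that acts on RIG-I, at a mean of 5.92 FPKM in Case and 14.1 in Ctrl (log2 fold change -1.33, q = 0.00917). The adaptor Mavs had a log2 fold change of 0.02 (q = 0.935), the kinase Tbk1 0.07 (q = 0.598) and the transcription factors Irf3 and Irf7 -0.20 (q = 0.180) and 0.94 (q = 0.139). In Dapa against Ctrl the 1 gene called was Irf3, which fell by 0.45 on the log2 scale (q = 0.0159), where 14.9% of all genes fell, so 1 of 13 lay below that share.

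Of 12 RNA-binding antiviral effectors tested, 5 rose in Case against Ctrl and none fell, where 6.09% of all genes rose. Ifit3, which with its relatives binds foreign RNA, rose by 2.05 on the log2 scale (q = 0.0113), Ifit3b by 1.99 (q = 0.0121), Ifit2 by 1.64 (q = 0.00709) and Ifit1 by 1.43 (q = 0.0141); Oas1c, named after its value was seen, was the fifth. The median of the 12 was 0.86, against 0.03 over all genes. In Dapa against Ctrl 6 of the 12 rose, where 14.2% of all genes did, with a median of 0.84. Reads of Ifit3 and Ifit3b, near-identical copies, may have been split between them.

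Of 12 genes of DNA sensing signalling, 0 rose and 1 fell in Case against Ctrl, the ubiquitin ligase Trim32 (log2 fold change -0.36, q = 0.0271), where 6.09% of all genes rose and 6.91% fell. The cGAS gene, listed as Mb21d1, was barely measured, at a mean of 0.106 FPKM in Case and 0.1 in Ctrl (log2 fold change -0.01, q = 0.989), so beside the rise of Tmem173 no difference in the enzyme that makes its ligand was detectable at this depth. In Dapa against Ctrl 2 rose and 4 fell, where 14.2% of all genes rose and 14.9% fell. Of 13 genes of endosomal receptor signalling, none was called in Case against Ctrl, where 13.0% of all genes were, and Unc93b1, which carries Tlr3 to endosomes, had a log2 fold change of 0.35 (q = 0.367). In Dapa against Ctrl 1 of the 13 rose, Tlr13 (0.98, q = 0.0405), named after its value was seen.

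The adaptor of Aim2 rose in Case although Aim2 itself was not called. Among 13 genes of the inflammasome and necroptosis, 3 rose and 1 fell in Case against Ctrl, where 6.09% and 6.91% of all genes did. Pycard, the adaptor of Aim2, rose by 1.13 on the log2 scale (q = 0.00348), Casp4, the caspase that detects bacterial lipopolysaccharide, by 1.34 (q = 0.0230) and Gsdmd, which forms pores in the membrane, by 1.00 (q = 0.0254). Nlrc4, another inflammasome gene, fell by 1.97 (q = 0.00281), and it was the 1 gene of the list called in Dapa against Ctrl, where it fell by 1.60 (q = 0.00469). Of all genes, 29.1% were called in that comparison and 14.9% fell. Nlrc4 had few counts per mouse, 24 to 45 in Ctrl, 4 to 16 in Case and 3 to 15 in Dapa. The partners of Zbp1 in necroptosis, named after their values were seen, did not pass: Mlkl had a log2 fold change of 1.27 (q = 0.105) and Ripk3 of -0.40 (q = 0.561) in Case against Ctrl.

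Nucleases and editing enzymes that limit the sensors' ligands showed no call among 15 genes in Case against Ctrl, where 13.0% of all genes were called. In Dapa against Ctrl, of 14 tested, 1 rose and 1 fell, where 14.2% of all genes rose and 14.9% fell. Adar, which edits double-stranded RNA, rose by 0.61 (q = 0.00283) and the secreted nuclease Dnase1 fell by 1.11 (q = 0.00359), both named after their values were seen. Of 18 interferon and receptor genes listed, 6 were in the table, and the other 12, Ifnb1 among them, were not analysed here. Ifng had 0 counts in every Ctrl and Dapa mouse and 0 to 6 in Case mice. Of the 5 receptor genes tested, 1 rose, Ifnlr1, the receptor of type III interferon, by 0.74 in Case (q = 0.0408) and by 1.23 in Dapa (q = 0.00155), where 6.09% and 14.2% of all genes rose. In Dapa against Case 0% of all genes were called, so the absence of calls in these 8 lists says nothing about them.

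**Figure D5:**
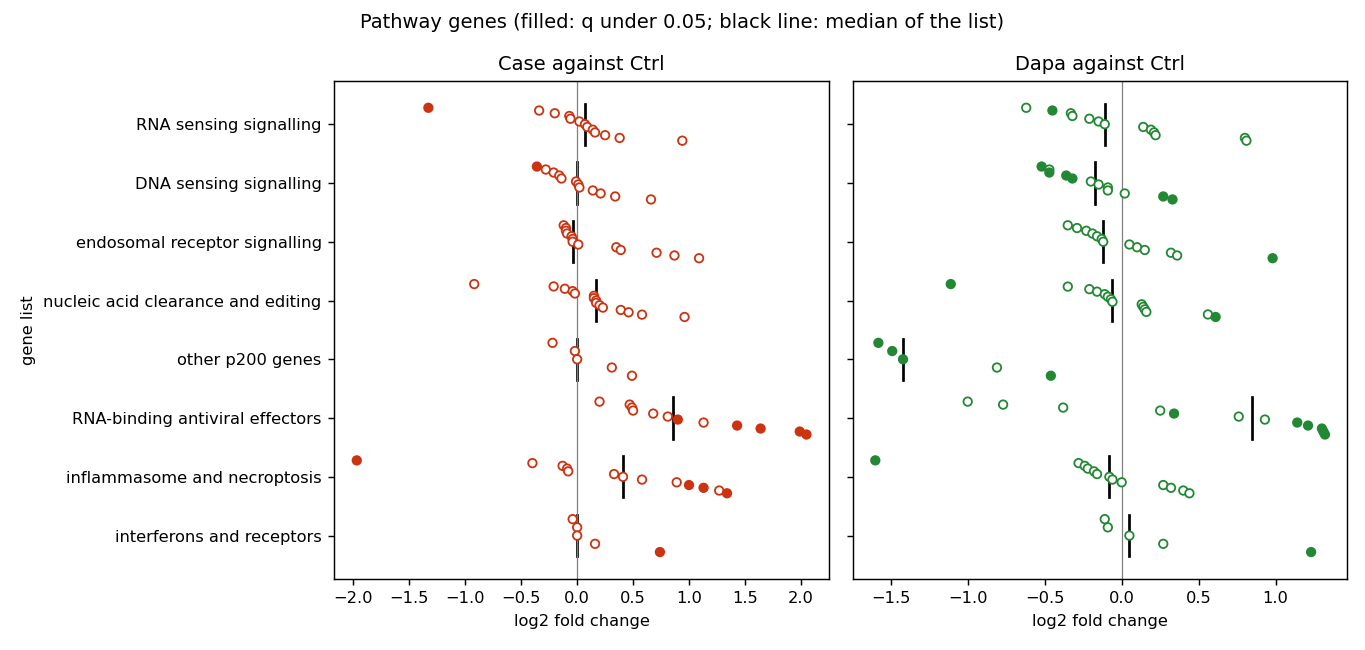
Log2 fold change (x axis) of every tested gene of the 8 lists (rows) in Case against Ctrl (left) and Dapa against Ctrl (right), with filled points at q under 0.05 and a black line at each list's median. All 12 antiviral effectors lie to the right of 0 in Case and 9 of them in Dapa, with medians of 0.86 and 0.84, and the other p200 genes lie at 0.00 in Case and -1.42 in Dapa.

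Among the RNA sensors and STING, Spearman's rho of log2(FPKM + 1) over the 17 mice ran from 0.55 for Ifih1 and Tmem173 to 0.84 for Dhx58 and Tlr3 and for Tlr3 and Tmem173. Within the 12 db/db mice these pairs ran from 0.27 for Ifih1 and Tlr3 to 0.78 for Tlr3 and Tmem173. Over all 17 mice, Aim2 had rho between -0.24 and 0.18 with every other sensor, and Ifi207 between -0.34 and 0.44; within db/db mice Ifi207 reached 0.49 with Ddx58 and 0.53 with Ifi204. Over the 12 db/db mice alone, Tmem173 and Ifi203 reached 0.82, against 0.15 over all 17. Zbp1 and Ifi204 reached 0.80 and Zbp1 and Dhx58 0.78. These values are descriptions: the mice share groups, and Case 3 is the highest of all mice for 8 of the 10 sensors.

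Outside the sensors, the genes most like each in pattern over the 17 mice were sought among 11455 other genes with a mean of at least 1 FPKM. For Ddx58 they were Tapbp (rho 0.91), an aid to antigen loading on MHC class I, and Wdr35 (0.91). For Ifih1 they were Ctsb (0.90), a lysosomal protease, and Psme2b (0.89). For Tlr3 they were 9530082P21Rik (0.94) and Ifit2 (0.93), the effector described above, and for Tmem173 Prss23 (0.90) and Dennd2d (0.89).

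For the p200 sensors the most alike genes were Pcyox1l (0.90) and Fam50a (0.87) for Ifi203, Map3k11 (0.80) and Smarcb1 (0.77) for Ifi204, and Tln1 (0.83) and Bcap31 (0.82) for Ifi207. No gene was paired with more than 1 sensor. Within the 12 db/db mice these 14 values ranged from 0.71 for Tln1 to 0.92 for Fam50a. Those mice are among the 17 by which the genes were picked, so the values are no separate check. High rho is also partly a result of picking the highest of 11455 genes, and no p was computed.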

How the data were processed

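Kidney RNA from 17 mice was sequenced from strand-specific, oligo(dT)-enriched libraries. Per the submitters' processing notes and the study's methods, the authors aligned reads to mm10 with HISAT2 and derived counts per gene with Stringtie, and they deposited counts and FPKM; the methods name TMM scaling before FPKM, yet the deposited FPKM equalled count over total and length within 0.00482%. Of 22564 lines, those of 3 genes on 2 lines each were left out.

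Groups followed the labels. Each comparison was fitted on its own 2 groups with edgeR 4.0.16 (TMM, filterByExpr with a minimum count of 10, quasi-likelihood test, q under 0.05 over all genes); all 10 sensors passed the filter in each. FPKM were used for levels, ratios of 2 sensors per mouse (exact permutation, scipy 1.17.1, pseudocount 1) and Spearman's rho. DESeq2 1.42.0, limma 3.58.1 on log2(FPKM + 1) and on log2(FPKM + 0.1), other scalings and filters, and omission of each mouse were alternatives. The fits were tested on simulated data. Annotation was GENCODE vM21, of the files' build; RefSeq gave promoters.

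The sensors and lists were chosen with earlier results of these data known. Named were all sensors, of each list up to 4 genes with the smallest q in Case against Ctrl, Mavs, Mb21d1, Tbk1, Irf3, Irf7, Unc93b1, Ifnb1 and Ifng by role, and 2 like genes per sensor averaging at least 0.5 FPKM; other names are said to be chosen after values were seen. P-values measure the spread between these mice; depth covers counting error only.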

Additional observations from a re-analysis of the deposited data

Results flagged for a closer look

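In a test of whether 1 mouse lies far from the rest of its group, applied to each of the 10 sensors in each of the 3 groups, 5 of 30 groups stood out. The test's nominal rate of 1 in 20 assumes normally distributed levels and separate tests. Here the same mice recur for every sensor, so the count cannot be judged against that rate. Case 3 accounted for 4 of the 5. In this mouse Zbp1 was 3.24 FPKM, against 0.0698 to 1.22 in the other Case mice. Aim2 was 0.315 FPKM, against 0.124 to 0.158. Ifi204 was 3.09 FPKM, against 0.690 to 1.49, and Ifi207 was 1.63 FPKM, against 0.0863 to 0.596. The remaining value was a low one, Ifi204 at 0.396 FPKM in Ctrl 3, against 0.850 to 0.973 in the other Ctrl mice. Macrophage markers summed to 204.0 FPKM in Case 3 and to 27.26 in Ctrl 3, the lowest of the Ctrl mice; their part in these values was not tested.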

How the results depend on the processing

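Between Case and Ctrl the count of 4 sensors called fell to 2 without a filter on low counts, to 2 with limma on log2(FPKM + 1), to 2 with the fold threshold, to 0 with a term for the 7 libraries and to 0 with the replicate number as a block, where the log2 fold change of Ddx58 was 0.73 and 0.77, against 0.70; it was 5 with upper quartile scaling, DESeq2, edgeR's exact test or all 3 groups in one fit, and leaving out 1 mouse gave 0 to 5. The same numbers in Ctrl and Case did not pair the mice (correlations of deviations -0.122 to -0.026, and no mouse was most like its own number), and the replicate block took the genes called from 1895 to 699; Dapa shares no numbers with the other groups. Between Dapa and Ctrl the 4 sensors became 2 when all 3 groups shared a fit and 0 with the fold threshold, and 2 to 5 when 1 mouse was left out. Between Dapa and Case it was 0 under all 23 alternatives, among which DESeq2 called 202 genes. The causes were not tested.

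The sign turned for values near 0. With 1 mouse left out, Ifi203 in Case against Ctrl ranged from -0.41 to 0.03 (without Case 4). In Dapa against Case, Tlr3 ranged from -0.16 to 0.08, with 0.08 and 0.00 without Case 3 or Dapa 9, and Ifi207 from -0.12 to 0.79, with -0.07, -0.05, -0.12 and -0.04 without Case 1, 2 or 6 or Dapa 8. Dapa against Ctrl gave 0.00 and 0.02 for Ifi204 with limma at either pseudocount and, with 1 mouse left out, -0.26 to 0.01 (without Dapa 11). The log2 ratio of Dhx58 to Ddx58 was 0.40 in Case against Ctrl and 0.10 in Dapa against Ctrl with a pseudocount of 0.1, and 0.03, 0.02, 0.00, 0.07 and 0.02 in Dapa against Case without Dapa 8, 9 or 11 or Case 2 or 6. Low counts limit Zbp1, Aim2, Dhx58, Tmem173 and Ifi207, and outside the sensors genes such as Ifi209, Mnda, Ifi213, Mb21d1 and Nlrc4.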
